A study of Mus musculus with 12 samples.

Results

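Interferon-stimulated genes are switched on when a cell senses interferon, a secreted signal of infection, or when its own sensors meet RNA or DNA that looks viral. Interferon binds a receptor at the cell surface, kinases of the JAK family phosphorylate STAT proteins, and a complex that holds STAT2 and IRF9 then binds a DNA element called ISRE in the promoters of these genes. Their products detect viral RNA, degrade it, block its translation or stop the virus from entering or leaving the cell, and in brain they are made by microglia, astrocytes, endothelium and neurons. The 38 antiviral interferon-stimulated genes described here were chosen by name, as known genes of this response, with earlier results of these data known. They are 5 sensors (*Ifih1*, *Ddx58*, *Dhx58*, *Eif2ak2*, *Zbp1*), 6 genes of the OAS family (*Oas1a*, *Oas1b*, *Oas2*, *Oas3*, *Oasl1*, *Oasl2*), 4 of the IFIT family (*Ifit1*, *Ifit2*, *Ifit3*, *Ifit3b*), the Mx GTPases *Mx1* and *Mx2*, the ISG15 system with viperin (*Isg15*, *Usp18*, *Rsad2*), 4 membrane-associated restriction factors (*Bst2*, *Ifitm1*, *Ifitm2*, *Ifitm3*), 4 ubiquitin and ADP-ribose enzymes (*Parp9*, *Parp14*, *Dtx3l*, *Trim30a*), 4 transcription factors (*Irf1*, *Irf7*, *Irf9*, *Stat2*) and 6 others (*Ifi27*, *Ifi35*, *Ifi44*, *Xaf1*, *Rtp4*, *Samd9l*). All 38 were found among the 26409 listed genes, and all 38 passed the filter on low values, as did 18197 genes in total. Of the 38 genes, 28 had a mean of at least 1 TPM (the deposited unit, a share of each library's transcripts corrected for their length) and 3 (*Mx2*, *Oas1b*, *Rtp4*) were listed at 0 in at least 1 library.

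The data are RNA sequencing libraries of the hippocampus from 12 mice, 3 for each sex of WT and of *Dek* cKO mice. DEK is a chromatin protein. The *Dek* cKO mice, labelled DEK KO, carried *Dek* alleles whose exons 3 and 4 lay between loxP sites and were deleted by CMV-Cre, which acts in the germline and in nearly every tissue, so that *Dek* was lost from conception in all cells and not only in the hippocampus. Per the methods, the CMV-Cre mice were on a C57Bl/6 background, Cre was bred out, and mice for RNA were 6 to 12 months old. The sample labels place tissue collection within 6 weeks after the last behaviour test. The library names of the 3 female WT mice begin with C57 and those of the other 9, the male WT mice included, with CMV, so among WT mice the name prefix and the sex cannot be told apart.

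*Dek* itself had 44.2 to 51.9 TPM in the 6 WT libraries and 5.55 to 9.25 TPM in the 6 *Dek* cKO libraries. The Y-linked gene *Eif2s3y* had 72.7 TPM in the library labelled female cKO replicate 3 and 0.111 TPM in that labelled male cKO replicate 1, the reverse of their labels, which bears on each comparison within a sex. The library of male cKO replicate 3 stood apart by injury response genes: *Gfap*, the astrocyte filament, had 1267 TPM in it and 208 to 437 TPM in the other 11. In female WT replicate 1, 18719 genes had a value above 0, against 18104 to 18506 in the others. Library totals ranged from 825750 to 845553 TPM. Read counts are not kept in TPM, so the depth behind each value is unknown. Results are given with and without male cKO replicate 3.

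The letters of the interferon response element were common in the promoters of this group. A window from 250 bases before to 50 bases after an annotated start (RefSeq, GRCm38.p6) was at hand for 27 of the 38 genes. ISRE was taken as 2 copies of GAAA with any 2 bases between them. Searched on both strands, it occurred in 15 of these 27 (55.6%) and in 3.99% of 27025 genes with such a window. The GAS letters TTCNNNGAA, bound by STAT dimers and also searched on both strands, occurred in 7 of the 27 (25.9%), against 9.55% of all genes. Overlapping matches were each counted. No ISRE match lay in the windows of *Oasl1*, *Oasl2*, *Ifit2*, *Ifitm1*, *Dtx3l*, *Irf1*, *Irf7*, *Irf9*, *Ifi35*, *Ifi44*, *Xaf1* and *Samd9l*, and *Dhx58*, *Zbp1*, *Oas1b*, *Oas2*, *Mx1*, *Mx2*, *Usp18*, *Parp9*, *Parp14*, *Ifi27* and *Rtp4* had no window. The 5 windows that follow are given 5′ to 3′ on the strand of the gene with ISRE matches in capitals, for the gene whose genotypes did not overlap (*Isg15*), for viperin (*Rsad2*) and for neighbouring genes of the IFIT family.
*Isg15*, chr4:156200769-156201068, minus strand: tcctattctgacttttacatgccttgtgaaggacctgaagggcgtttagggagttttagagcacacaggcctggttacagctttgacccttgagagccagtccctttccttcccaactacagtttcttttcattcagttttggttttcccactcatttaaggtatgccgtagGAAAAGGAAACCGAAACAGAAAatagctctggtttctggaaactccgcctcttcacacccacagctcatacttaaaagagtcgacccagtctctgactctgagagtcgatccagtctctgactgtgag
*Rsad2*, chr12:26456403-26456702, minus strand: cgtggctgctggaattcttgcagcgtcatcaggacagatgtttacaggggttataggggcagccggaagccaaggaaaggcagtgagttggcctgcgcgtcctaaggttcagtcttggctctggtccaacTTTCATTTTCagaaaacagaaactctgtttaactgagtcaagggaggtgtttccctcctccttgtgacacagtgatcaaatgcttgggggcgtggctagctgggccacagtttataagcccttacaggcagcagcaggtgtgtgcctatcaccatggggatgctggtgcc
*Ifit1*, chr19:34640639-34640938, plus strand: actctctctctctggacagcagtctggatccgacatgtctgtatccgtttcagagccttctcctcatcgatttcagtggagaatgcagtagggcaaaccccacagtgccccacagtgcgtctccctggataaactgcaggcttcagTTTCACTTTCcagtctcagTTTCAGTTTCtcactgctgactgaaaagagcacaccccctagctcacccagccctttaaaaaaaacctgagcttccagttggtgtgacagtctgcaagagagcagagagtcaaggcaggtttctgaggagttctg
*Ifit3*, chr19:34583279-34583578, plus strand: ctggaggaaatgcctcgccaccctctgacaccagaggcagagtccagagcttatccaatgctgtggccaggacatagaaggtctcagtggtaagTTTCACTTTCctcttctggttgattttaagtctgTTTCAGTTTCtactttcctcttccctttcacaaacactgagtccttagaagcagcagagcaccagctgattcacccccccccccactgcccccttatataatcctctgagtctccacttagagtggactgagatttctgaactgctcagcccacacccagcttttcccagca
*Ifit3b*, chr19:34607707-34608006, plus strand: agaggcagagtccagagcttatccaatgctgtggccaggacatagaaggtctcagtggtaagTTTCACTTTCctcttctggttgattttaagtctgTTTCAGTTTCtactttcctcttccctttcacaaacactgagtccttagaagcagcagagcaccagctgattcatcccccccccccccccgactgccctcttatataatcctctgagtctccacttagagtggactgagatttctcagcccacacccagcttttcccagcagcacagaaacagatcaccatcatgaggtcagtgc
In *Isg15*, 3 overlapping matches form 1 run of letters, and their first bases lie at -78 to -66 from the start. *Rsad2* has 1 match at -120, and *Ifit1* has 2, at -104 and -85. The windows of *Ifit3* and *Ifit3b* share an unbroken run of 169 bases that holds both matches of each gene. The transcripts of these neighbouring copies are also nearly identical, so the split of reads between *Ifit3* and *Ifit3b* is uncertain.

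The first comparison asked whether these genes differed between *Dek* cKO and WT hippocampi when the sexes were pooled. The group lay slightly higher in *Dek* cKO mice as a whole, yet no single gene passed. The log2 fold change, taken on log2(TPM + 0.1), was above 0 for 35 of the 38 genes, with a median of 0.28, while 55.8% of all genes tested lay above 0 with a median of 0.02. The call required an adjusted p under 0.05 together with a fold change above 1.2. By it 0 of the 38 genes were called, while 27 of all 18197 genes (0.148%) were, and the smallest adjusted p of the group was 0.346 (limma, two-sided, Benjamini-Hochberg). At an unadjusted p under 0.05, 10 of the 38 were higher in *Dek* cKO mice (4.84% of all genes) and 0 were lower. Those 10 were *Isg15*, *Dhx58*, *Rsad2*, *Trim30a*, *Zbp1*, *Oas2*, *Oasl1*, *Ifit3*, *Irf1* and *Irf9*. Complete separation, with all 6 *Dek* cKO libraries above all 6 WT libraries, was seen for 1 of the 38, *Isg15* (0.572% of all genes).

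Without male cKO replicate 3, the median of the 38 genes was 0.23, and 35 of them again lay above 0 (56.1% of all genes). In that fit 8 of the 38 were higher at an unadjusted p under 0.05 (5.04% of all genes), *Irf1* and *Irf9* being no longer among them, and *Mx2* was lower. Among the CMV-named libraries the WT mice were all male and the *Dek* cKO mice of both sexes, so sex was not matched. Within these alone, 6 *Dek* cKO against 3 male WT, the median was 0.43. There 10 of the 38 were higher at that threshold (3.51% of all genes), and 7 had all 6 *Dek* cKO above all 3 WT libraries (1.93% of all genes). These are whole-tissue values, in which a larger number of cells of a type and more RNA per cell cannot be told apart.

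**Figure D1:**
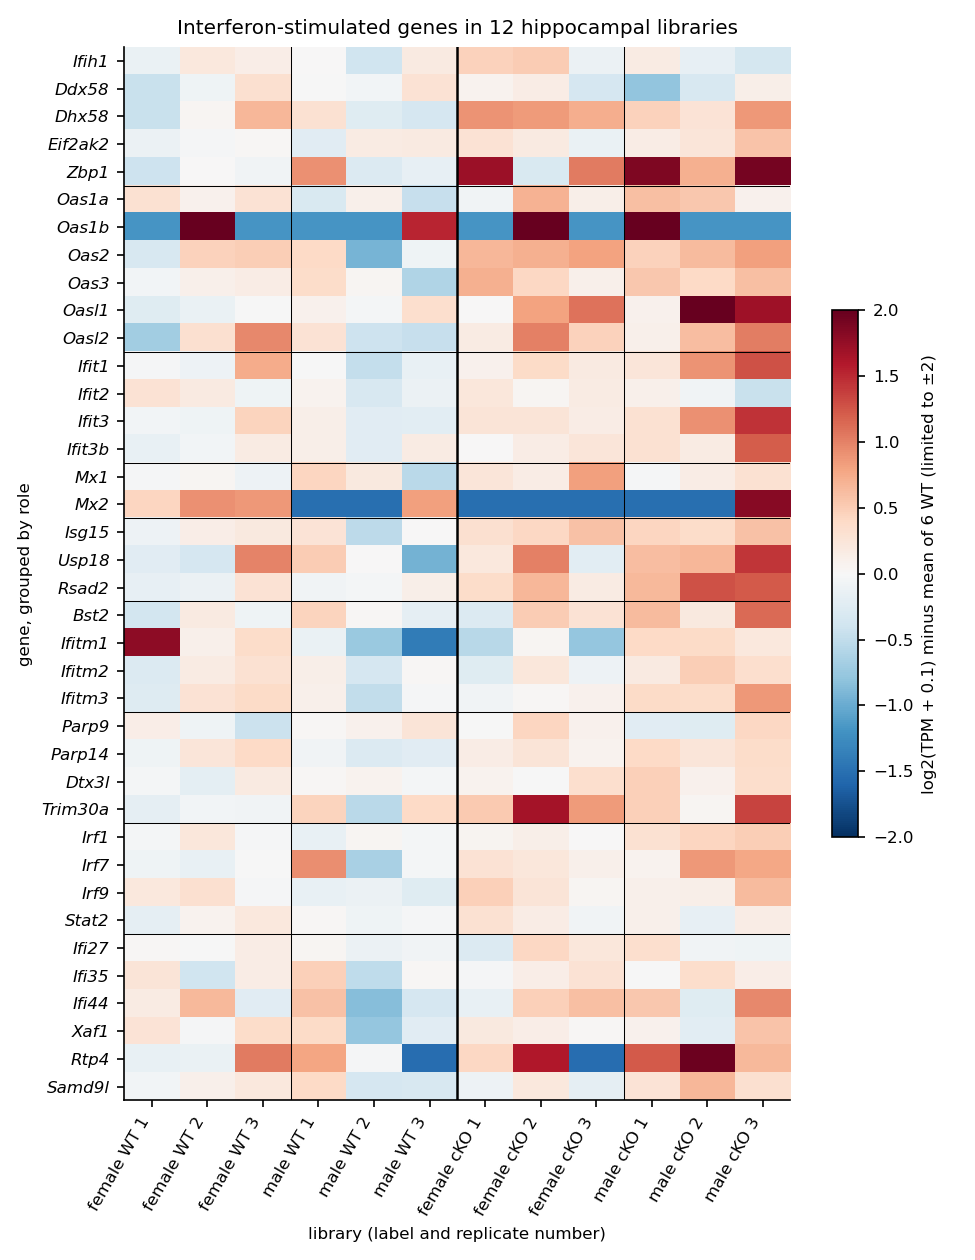
Level of the 38 interferon-stimulated genes in each library as log2(TPM + 0.1) minus the mean of the 6 WT libraries, with red above and blue below that mean and colours limited to ±2; thin horizontal lines part the roles and the thick vertical line parts WT (left) from cKO (right). Male cKO replicate 3 held the highest value of 16 of the 38 genes. Male WT replicate 2 held the lowest of 15, a count that leaves aside genes at 0 in several libraries. The same counts over all genes were not made, so no background share stands beside them.

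*Isg15* (chr4:156199424-156200818, minus strand) encodes a ubiquitin-like protein that is attached to other proteins in infected cells. Its levels were 4.63, 5.48 and 5.73 TPM in female WT, 6.05, 3.44 and 5.02 in male WT, 6.26, 6.67 and 7.54 in female cKO and 6.74, 6.46 and 7.54 in male cKO libraries. Every *Dek* cKO library thus lay above every WT library, although the gap between 6.05 and 6.26 TPM was small. The mean was 5.06 ± 0.939 TPM in WT and 6.87 ± 0.546 TPM in cKO libraries (SD, n = 6 each), a log2 fold change of 0.45 ± 0.13 (SE; unadjusted p = 0.00306, adjusted p = 0.346, limma), and 0.43 without male cKO replicate 3. *Rsad2* (chr12:26442746-26456452, minus strand) encodes viperin, which makes a chain-terminating nucleotide against viral polymerases. Its levels were 0.55, 0.569 and 0.791 TPM in female WT, 0.594, 0.608 and 0.693 in male WT, 0.844, 1.05 and 0.717 in female cKO and 1.04, 1.66 and 1.62 in male cKO libraries. Of the 6 *Dek* cKO libraries, 5 lay above all WT libraries, with female cKO replicate 3 inside their range. *Rsad2* thus had a log2 fold change of 0.72 ± 0.22 (SE; unadjusted p = 0.00532, adjusted p = 0.44, limma) and 0.62 without male cKO replicate 3. *Usp18*, the protease that removes ISG15 and also dampens the interferon receptor, had 0.334 to 1.57 TPM in WT and 0.629 to 2.16 TPM in cKO libraries, ranges that overlapped widely (log2 fold change 0.62 ± 0.34, SE, unadjusted p = 0.0918, limma).

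Among the sensors, *Dhx58* and *Zbp1* were the 2 genes with an unadjusted p under 0.05, and 4 of the 5 had a log2 fold change above 0, with a median of 0.21. *Dhx58* (chr11:100694884-100704271, minus strand) encodes LGP2, which binds double-stranded RNA and tunes the other sensors. It had 1.43, 2.03 and 3.22 TPM in female WT, 2.47, 1.67 and 1.56 in male WT, 3.79, 3.68 and 3.35 in female cKO and 2.77, 2.42 and 3.71 in male cKO libraries. By label, all female cKO values were above all WT values, whereas 2 male cKO libraries lay within the WT range. Of the libraries of conflicting sex, female cKO replicate 3 had 3.35 TPM and male cKO replicate 1 had 2.77 TPM. Exchanged by their Y-linked expression, the female cKO values would not all lie above WT. This gave a log2 fold change of 0.68 ± 0.20 (SE; unadjusted p = 0.00404, adjusted p = 0.387, limma) and 0.64 without male cKO replicate 3. *Zbp1* (chr2:173206612-173218923, minus strand) encodes a sensor of Z-form nucleic acids that triggers cell death. It had 0.111, 0.181 and 0.168 TPM in female WT, 0.43, 0.133 and 0.15 in male WT, 0.816, 0.128 and 0.475 in female cKO and 0.92, 0.36 and 0.957 in male cKO libraries. The levels are low, 4 of the 6 *Dek* cKO libraries exceeded all WT libraries, and female cKO replicate 2 was among the lowest of all. Its log2 fold change of 1.15 ± 0.39 (SE; unadjusted p = 0.0116, adjusted p = 0.568, limma) was the largest of the 38 genes, and was 1.00 without male cKO replicate 3.

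The other sensors differed little. *Ifih1* encodes MDA5, a sensor of long double-stranded RNA, and had 1.31 to 2.05 TPM in WT and 1.37 to 2.56 TPM in cKO libraries (log2 fold change 0.08 ± 0.18, SE). *Ddx58* encodes RIG-I, which recognises RNA with 5′ triphosphate ends, and had 5.65 to 9.74 TPM in WT and 4.45 to 8.59 TPM in cKO libraries. With a log2 fold change of -0.18 ± 0.17 (SE, unadjusted p = 0.309, limma) it was 1 of the 3 genes below 0, beside *Mx2* and *Ifitm1*. *Eif2ak2*, which encodes PKR, the kinase that halts translation on binding double-stranded RNA, had 5.44 to 7.25 TPM in WT and 5.81 to 9.50 TPM in cKO libraries. Its highest value was that of male cKO replicate 3, and the log2 fold change of 0.21 was 0.14 without it.

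**Figure D2:**
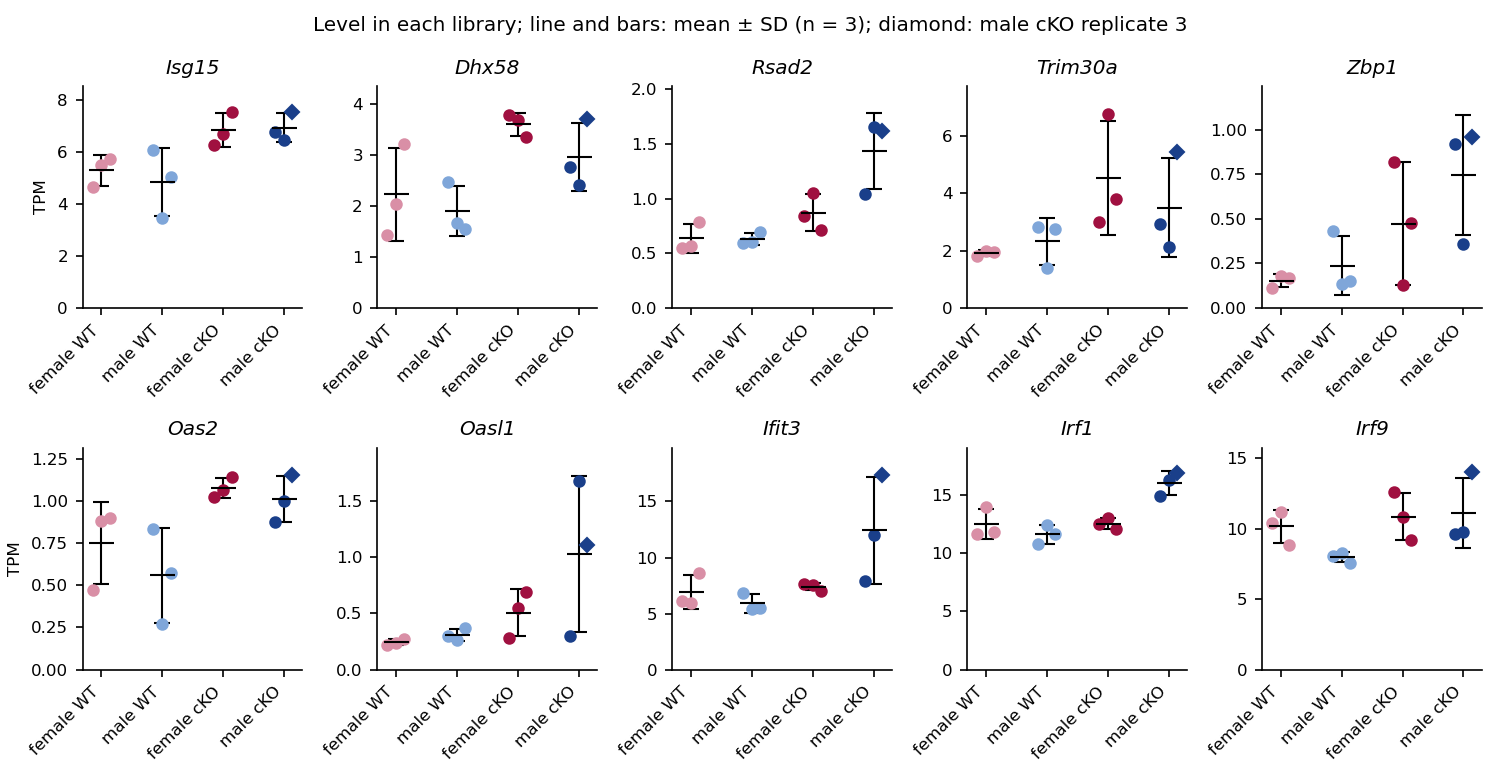
TPM of the 10 genes with the smallest unadjusted p in each library, by group (points), with the mean and SD of the 3 libraries of a group (line and bars) and male cKO replicate 3 as a diamond. In *Isg15* the lowest cKO value (6.26 TPM) lies just above the highest WT value (6.05 TPM), and in the other 9 genes at least 1 cKO library lies within the WT range.

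All 6 genes of the OAS family had a log2 fold change above 0, with a median of 0.51, and 2 of them, *Oas2* and *Oasl1*, had an unadjusted p under 0.05. OAS enzymes make 2′-5′-linked oligoadenylates when they bind double-stranded RNA, and these set off the breakdown of RNA. *Oas2* (chr5:120730333-120749853, minus strand) had 0.47, 0.88 and 0.896 TPM in female WT, 0.834, 0.272 and 0.571 in male WT, 1.02, 1.06 and 1.14 in female cKO and 0.877, 1.00 and 1.15 in male cKO libraries. Male cKO replicate 1, at 0.877 TPM, was the only cKO library below the highest WT value of 0.896 TPM, and the *Dek* cKO libraries were the more alike. For *Oas2* the log2 fold change was 0.68 ± 0.25 (SE; unadjusted p = 0.0164, adjusted p = 0.611, limma) and 0.65 without male cKO replicate 3. *Oasl1* (chr5:114923240-114937915, plus strand) encodes an OAS-like protein without synthetase activity that restrains translation of *Irf7* mRNA. Its levels were 0.217, 0.24 and 0.273 TPM in female WT, 0.297, 0.266 and 0.371 in male WT, 0.278, 0.552 and 0.694 in female cKO and 0.299, 1.68 and 1.11 in male cKO libraries. The WT values were tightly grouped, and 4 *Dek* cKO libraries were above them while 2 were among them. The log2 fold change was 0.99 ± 0.36 (SE; unadjusted p = 0.017, adjusted p = 0.618, limma) and 0.85 without male cKO replicate 3.

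*Oasl2*, an OAS-like gene whose product keeps synthetase activity, was the most abundant of the family, with 1.94 to 6.36 TPM in WT and 3.44 to 6.62 TPM in cKO libraries (log2 fold change 0.56 ± 0.27, SE, unadjusted p = 0.0599, limma). *Oas1a* had 0.345 to 0.656 TPM in WT and 0.485 to 0.893 TPM in cKO libraries, a log2 fold change of 0.33 ± 0.22 (SE). *Oas3* was the least abundant of the 38 genes, at 0.0208 to 0.138 TPM in WT and 0.0967 to 0.200 TPM in cKO libraries. In 5 of the 6 *Dek* cKO libraries it was above every WT library, with a log2 fold change of 0.46 ± 0.28 (SE, unadjusted p = 0.122, limma). *Oas1b* was listed at 0 in 7 libraries. It had 2.02 TPM in female WT replicate 2, 0.55 TPM in male WT replicate 3, 1.72 TPM in female cKO replicate 2 and 2.42 TPM in male cKO replicate 1, and next to none in female cKO replicate 3, with no tie to genotype or sex.

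IFIT proteins bind viral RNA that lacks the cap marks of the host and keep it from being translated. *Ifit3* (chr19:34583531-34588731, plus strand) had 6.10, 5.98 and 8.65 TPM in female WT, 6.86, 5.40 and 5.47 in male WT, 7.62, 7.55 and 7.04 in female cKO and 7.86, 12.03 and 17.4 in male cKO libraries. Male cKO replicates 2 and 3 stood above all others, and the remaining 4 *Dek* cKO libraries were below female WT replicate 3. Its log2 fold change was 0.56 ± 0.21 (SE; unadjusted p = 0.0195, adjusted p = 0.628, limma), and without male cKO replicate 3 it was 0.38 (unadjusted p = 0.0294). *Ifit1* had 0.916 to 2.27 TPM in WT and 1.41 to 3.32 TPM in cKO libraries, and its 2 highest values were again those of male cKO replicates 2 and 3 (log2 fold change 0.51 ± 0.24, SE, unadjusted p = 0.0555, limma). *Ifit3b* had 8.03 TPM in male cKO replicate 3 and 2.92 to 4.23 TPM in the other 11 libraries. Its log2 fold change of 0.34 was 0.17 without that library. *Ifit2* did not move with its neighbours: it had 4.80 to 7.43 TPM in WT and 4.42 to 7.08 TPM in cKO libraries, the lowest being male cKO replicate 3, and a log2 fold change of 0.00 ± 0.13 (SE).

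The Mx GTPases form rings that trap incoming viral nucleoproteins. *Mx1* had 0.648 to 1.36 TPM in WT and 0.965 to 1.82 TPM in cKO libraries, a log2 fold change of 0.28 ± 0.20 (SE, unadjusted p = 0.184, limma). *Mx2* was detected in 4 of 6 WT libraries, at 0.285, 0.438 and 0.42 TPM in females and 0.402 TPM in male replicate 3, and was listed at 0 in male WT replicates 1 and 2. In *Dek* cKO mice it was listed at 0 in 5 libraries and had 0.903 TPM in male cKO replicate 3. That library held the highest *Mx2* value of all 12, so the direction of the difference rests on low values near the limit of the list: the fitted log2 fold change was -0.96 ± 0.68 (SE, unadjusted p = 0.183, limma) with it and -1.51 (unadjusted p = 0.0154) without it.

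Membrane-associated restriction factors stop viruses at the cell surface or in endosomes. *Ifitm3* (chr7:141009586-141010770, minus strand) blocks fusion of viral and endosomal membranes, and had 22.0, 32.2 and 34.5 TPM in female WT, 28.3, 18.7 and 25.9 in male WT, 25.2, 26.7 and 28.1 in female cKO and 34.3, 34.1 and 48.4 in male cKO libraries. By label, the genotypes overlapped in females, and in males every *Dek* cKO library was above every WT library. The separation in males rests on the labels. Female cKO replicate 3, which had Y-linked expression, had 28.1 TPM, below the highest male WT value of 28.3 TPM. Over both sexes the log2 fold change was 0.28 ± 0.17 (SE; unadjusted p = 0.131, adjusted p = 0.852, limma) and 0.16 without male cKO replicate 3. *Ifitm2* (chr7:140954837-140955987, minus strand) had 18.6, 25.2 and 27.6 TPM in female WT, 24.3, 17.7 and 22.8 in male WT, 18.9, 26.2 and 20.9 in female cKO and 25.5, 31.4 and 28.4 in male cKO libraries. By label, *Ifitm2* had the same arrangement as *Ifitm3*, with female cKO replicate 3 at 20.9 TPM inside the male WT range. Its log2 fold change was 0.15 ± 0.14 (SE, unadjusted p = 0.296, adjusted p = 0.917, limma). *Ifitm1* had 21.9 TPM in female WT replicate 1 and 2.31 to 8.26 TPM in the other 11 libraries. Its log2 fold change over both sexes was -0.05 ± 0.43 (SE) with that library and 0.31 without it. *Bst2*, which encodes tetherin and holds budding virions on the cell, had 5.67 to 10 TPM in WT and 6.05 to 16.2 TPM in cKO libraries, a log2 fold change of 0.41 ± 0.20 (SE, unadjusted p = 0.0601, limma) that was 0.27 without male cKO replicate 3, the highest library.

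Of the 4 ubiquitin and ADP-ribose enzymes, *Trim30a* had an unadjusted p under 0.05. *Trim30a* (chr7:104409025-104465193, minus strand) encodes a mouse TRIM protein that dampens inflammatory signalling. It had 1.80, 1.99 and 1.97 TPM in female WT, 2.83, 1.38 and 2.75 in male WT, 2.99, 6.75 and 3.80 in female cKO and 2.92, 2.13 and 5.42 in male cKO libraries. Of the 6 *Dek* cKO libraries, 5 were above all WT libraries and male cKO replicate 2 was within their range. For *Trim30a* the log2 fold change was 0.82 ± 0.26 (SE; unadjusted p = 0.00827, adjusted p = 0.514, limma) and 0.71 without male cKO replicate 3. *Parp9* and *Dtx3l* encode partners that together modify histones and viral proteins, and their genes overlap on opposite strands by 682 bases. *Parp9* had 4.79 to 7.79 TPM in WT and 5.50 to 8.79 TPM in cKO libraries, and *Dtx3l* 2.55 to 3.34 and 2.91 to 4.09 TPM. Their log2 fold changes were 0.08 ± 0.15 and 0.22 ± 0.11 (SE). *Parp14*, another ADP-ribosyltransferase, had 0.918 to 1.52 TPM in WT and 1.19 to 1.51 TPM in cKO libraries, with a log2 fold change of 0.25 ± 0.16 (SE).

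The transcription factors that drive these genes all had a log2 fold change above 0, with a median of 0.25. *Irf1* (chr11:53770014-53778374, plus strand), a factor induced by both interferon classes, had 11.6, 13.997 and 11.8 TPM in female WT, 10.8, 12.4 and 11.7 in male WT, 12.5, 13.0 and 12.1 in female cKO and 14.9, 16.3 and 16.9 in male cKO libraries. By label, the 3 male cKO libraries were the highest of all 12, and the female cKO libraries lay within the female WT range. Both libraries of conflicting sex enter this, male cKO replicate 1 at 14.9 TPM and female cKO replicate 3 at 12.1 TPM. Exchanged by their Y-linked expression, neither pattern would hold. The log2 fold change over both sexes was 0.24 ± 0.09 (SE; unadjusted p = 0.0268, adjusted p = 0.673, limma) and 0.19 (unadjusted p = 0.0606) without male cKO replicate 3. *Irf9* (chr14:55603571-55610030, plus strand), the DNA-binding part of the complex that recognises ISRE, had 10.4, 11.2 and 8.87 TPM in female WT, 8.10, 8.25 and 7.59 in male WT, 12.6, 10.8 and 9.19 in female cKO and 9.60, 9.77 and 14.01 in male cKO libraries. By label, each male cKO library was above each male WT library, and the females overlapped. Over both sexes *Irf9* had a log2 fold change of 0.27 ± 0.12 (SE; unadjusted p = 0.0482, adjusted p = 0.746, limma) and 0.20 (unadjusted p = 0.111) without male cKO replicate 3, and *Irf9* overlaps *Rnf31* by 123 bases on the same strand.

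*Irf7* (chr7:141262706-141266481, minus strand), which amplifies type I interferon production, had 1.56, 1.49 and 1.66 TPM in female WT, 3.27, 1.02 and 1.61 in male WT, 2.06, 1.97 and 1.80 in female cKO and 1.75, 3.13 and 2.90 in male cKO libraries. All 6 *Dek* cKO values exceeded those of 5 WT libraries, but male WT replicate 1 had the highest value of all. This gave a log2 fold change of 0.39 ± 0.24 (SE; unadjusted p = 0.129, adjusted p = 0.852, limma). *Stat2* (chr10:128270559-128292849, plus strand), the partner of IRF9 in that complex, had 8.65, 10.3 and 11.4 TPM in female WT, 9.96, 9.29 and 9.69 in male WT, 12.2, 10.9 and 9.35 in female cKO and 10.6, 8.82 and 10.9 in male cKO libraries. The genotypes overlapped nearly in full, with a log2 fold change of 0.08 ± 0.09 (SE; unadjusted p = 0.395, adjusted p = 0.938, limma).

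Of the 5 most abundant genes, *Irf1* was the only one among the 10 with the smallest p. *Ifi27* (chr12:103434211-103440239, plus strand), which encodes a small mitochondrial membrane protein, had by far the highest level, with 108, 106 and 119 TPM in female WT, 110, 98.5 and 102 in male WT, 88.8, 143 and 125 in female cKO and 135, 102 and 101 in male cKO libraries. The *Dek* cKO libraries spread on both sides of the WT libraries, and the log2 fold change was 0.09 ± 0.10 (SE; unadjusted p = 0.4, adjusted p = 0.939, limma). *Xaf1* (chr11:72301629-72313733, plus strand), a promoter of apoptosis, had 17.6, 14.4 and 18.8 TPM in female WT, 19.1, 8.51 and 12.5 in male WT, 16.7, 16.1 and 14.9 in female cKO and 15.6, 12.6 and 21.6 in male cKO libraries. The genotypes overlapped, with a log2 fold change of 0.13 ± 0.19 (SE; unadjusted p = 0.488, adjusted p = 0.95, limma). For *Ifi35*, *Ifi44* and *Samd9l* the fold changes on the log2 scale were 0.15, 0.36 and 0.20, with unadjusted p values above 0.05. *Ifi35* had 2.33 to 4.68 TPM in WT and 3.30 to 4.30 TPM in cKO libraries. *Ifi44* had 0.265 to 0.936 and 0.456 to 1.18 TPM, and *Samd9l*, an inhibitor of translation, 1.31 to 2.23 and 1.47 to 2.70 TPM. *Rtp4*, a chaperone of receptors, was listed at 0 in male WT replicate 3 and in female cKO replicate 3, and had 0.159 to 0.49 TPM in the other WT and 0.282 to 1.01 TPM in the other cKO libraries.

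**Figure D3:**
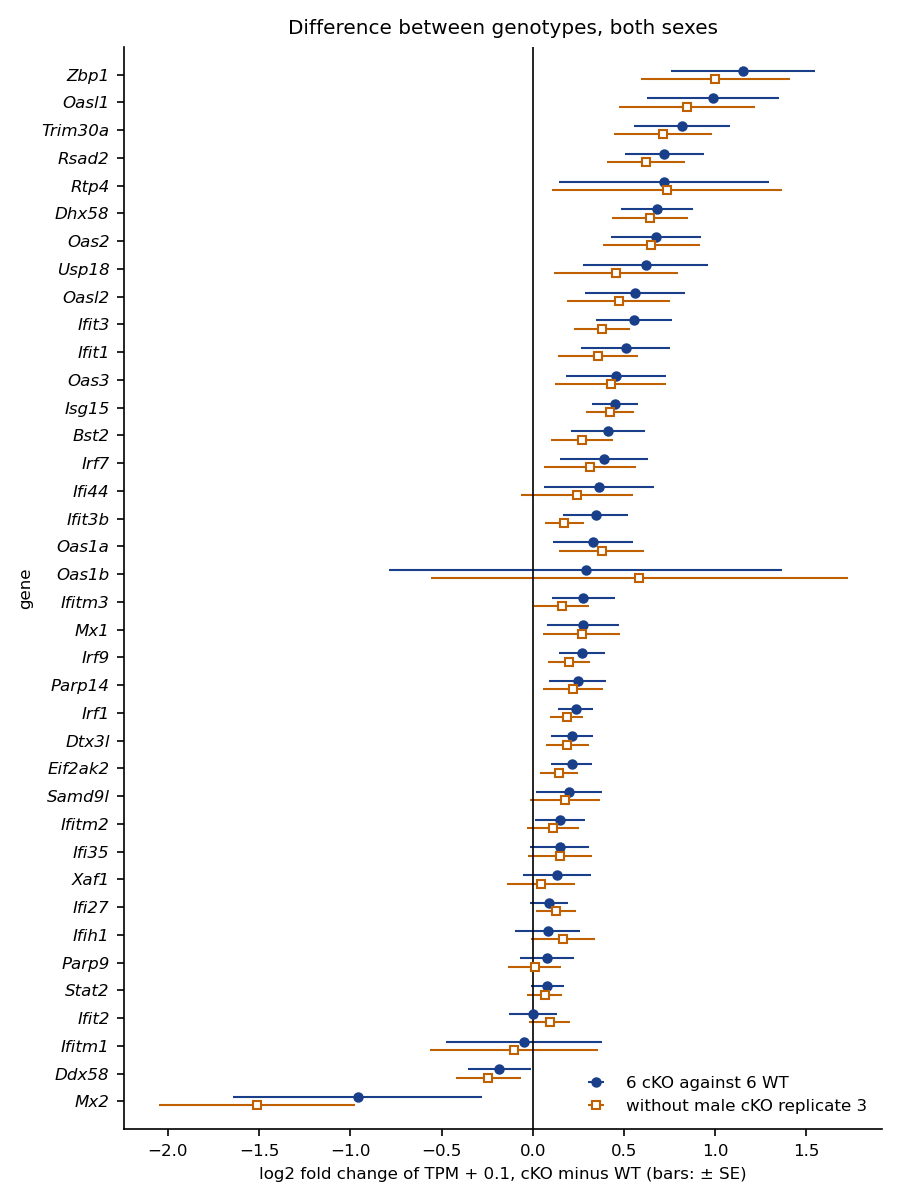
Log2 fold change of TPM + 0.1, cKO minus WT, for each of the 38 genes with its SE (bars), from all 12 libraries (filled circles) and without male cKO replicate 3 (open squares), ordered by size. The circles of 35 genes lie to the right of 0, from *Ifit2* at 0.00 to *Zbp1* at 1.15, and those of *Ifitm1*, *Ddx58* and *Mx2* to the left.

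The second comparison asked whether the sexes differed in this. Groups followed the labels, so female cKO replicate 3 and male cKO replicate 1 entered against their Y-linked expression. Within a sex, 0 of the 38 genes were called in females (0.0165% of all genes) and 0 in males (0.0165%), with smallest adjusted p values of 0.798 and 0.397 (limma, 3 libraries against 3). In females the median log2 fold change was 0.12, and 29 of the 38 genes were above 0 (54.3% of all genes). At an unadjusted p under 0.05, 2 genes were higher in female cKO mice, *Dhx58* and *Trim30a* (3.91% of all genes), and *Ifitm1* and *Mx2* were lower. In males the median was 0.53, and 34 of the 38 genes were above 0 (55.2% of all genes). At the same threshold 13 genes were higher in male cKO mice (3.68% of all genes): *Irf1*, *Ifit3*, *Rsad2*, *Ifitm3*, *Ifit1*, *Isg15*, *Irf9*, *Ifitm1*, *Parp14*, *Oasl1*, *Zbp1*, *Oas2* and *Ifitm2*. Without male cKO replicate 3, the male median was 0.41 and 8 genes were higher (2.75% of all genes), namely *Irf1*, *Ifit3*, *Rsad2*, *Ifitm3*, *Ifit1*, *Oas1a*, *Ifitm1* and *Isg15*, while *Ddx58* was lower at this threshold (-0.63 on the log2 scale). The count of higher genes in males also moved with the WT libraries. It was 21 without male WT replicate 1 (3.02% of all genes), 8 without male WT replicate 2 (3.35%) and 8 without male WT replicate 3 (2.62%).

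Whether the genotypes differed more in females or in males was tested as an interaction, the female effect minus the male effect. None of the 38 genes was called (0 of 38; 0% of all genes), and each had an adjusted p of at least 0.966 (limma). At an unadjusted p under 0.05, 5 genes had a more positive effect in males and 0 in females (4.23% of all genes in either direction). In the order of their p they were *Ifitm1* (-2.27 on the log2 scale), *Irf1* (-0.45), *Ifitm3* (-0.80), *Ifit3* (-0.88) and *Ifit1* (-1.004), with unadjusted p values of limma from 0.0026 to 0.0399. By label, the female and male effects were 0.01 and 0.46 for *Irf1*, and 0.12 and 1.00 for *Ifit3*. When both libraries whose Y-linked expression went against their label were left out, the medians of the 38 genes were 0.20 in females and 0.56 in males. At an unadjusted p under 0.05, 2 of the 38 were then higher in females (1100 of 18198 genes) and 11 in males (853 of 18198 genes). In the interaction, 6 of the 38 then had a more positive effect in males (1601 of 18198 genes in either direction). Female WT libraries differ from all others in their name prefix, so in females prefix and genotype cannot be told apart.

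Libraries were also compared by a score, the median over the 38 genes of the log2 level relative to the mean of the 12 libraries. WT libraries scored -0.42 to 0.08 and *Dek* cKO libraries -0.05 to 0.42, with an SD of 0.19 in WT and 0.17 in *Dek* cKO libraries (n = 6 each). The highest score was that of male cKO replicate 3 and the lowest that of male WT replicate 2. Female WT replicate 3 and male WT replicate 1 reached into the *Dek* cKO range, at 0.08 and -0.01. Of the 38 genes, 24 were above every WT library in male cKO replicate 3, and 10 to 16 were in each of the other 5 *Dek* cKO libraries. The same count over all genes was not made, so no background share stands beside these numbers.

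Markers of the cells and states that could carry these transcripts were set beside the scores. The 15 injury response genes summed to 307 to 431 TPM in WT, 336 to 616 TPM in 5 *Dek* cKO libraries and 1779 TPM in male cKO replicate 3. None of these 15 had an unadjusted p under 0.05 between genotypes, and 4 had a mean under 1 TPM. The 12 microglial markers summed to 437 to 508 TPM in WT, 468 to 559 TPM in 5 *Dek* cKO libraries and 493 TPM in male cKO replicate 3, with 2 of 12 higher at an unadjusted p under 0.05 and 0 of 12 called. They were split in male cKO replicate 3, where *C1qb* had its highest value of all libraries (95.0 TPM). There *Cx3cr1* (16.5 TPM), *P2ry12* (8.21 TPM) and *Siglech* (15.1 TPM) had their lowest. All 14 markers of infiltrating lymphoid and myeloid cells had a mean under 1 TPM and summed to 2.74 to 5.55 TPM in WT and 3.01 to 8.92 TPM in cKO libraries. Of the 9 of them that passed the filter, *S100a9*, a protein of neutrophils, was higher at an unadjusted p under 0.05, with 0 to 0.428 TPM in WT and 0 to 3.89 TPM in cKO libraries, and 0 were called. *Cd3g*, *Cd79a*, *S100a8* and *Plac8* had log2 fold changes of 0.38, 0.17, 0.11 and 0.08. Those of *Ccr2*, *Cd8a*, *Cd4* and *Cd209a* were -0.39, -0.28, -0.18 and -0.14. Among the markers that did not pass the filter, *Cd3e* was listed at 0 in 6 libraries, *Nkg7* in 10 and *Ly6c2* in 11. The 8 endothelial markers summed to 164 to 192 TPM in WT and 152 to 184 TPM in cKO libraries. Choroid plexus markers varied widely within both genotypes, from 72.5 to 3058 TPM in WT and from 46.5 to 4473 TPM in cKO libraries. The 6 oligodendrocyte markers summed to 2348 TPM in male WT replicate 2, 4263 to 4866 TPM in the other WT and 2678 to 4391 TPM in cKO libraries, and *Mag*, a myelin protein, had 0.00237 TPM in that WT library and 4.39 to 28.6 TPM in the other 11. Male WT replicate 2 is the library with the lowest score of the 38 genes, and their median log2 fold change was 0.25 without it. The 6 astrocyte markers summed to 1003 TPM in male cKO replicate 3 and 1119 to 1268 TPM in the other 11 libraries, and the 6 neuronal markers to 4676 to 5393 TPM. The astrocyte markers did not move together in male cKO replicate 3. *Aqp4* had its highest value of all libraries there (99.4 TPM), and *Gja1* (68.6 TPM) and *Aldoc* (522 TPM) had their lowest. The part of these markers in the differences among the 38 genes was not tested.

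**Figure D4:**
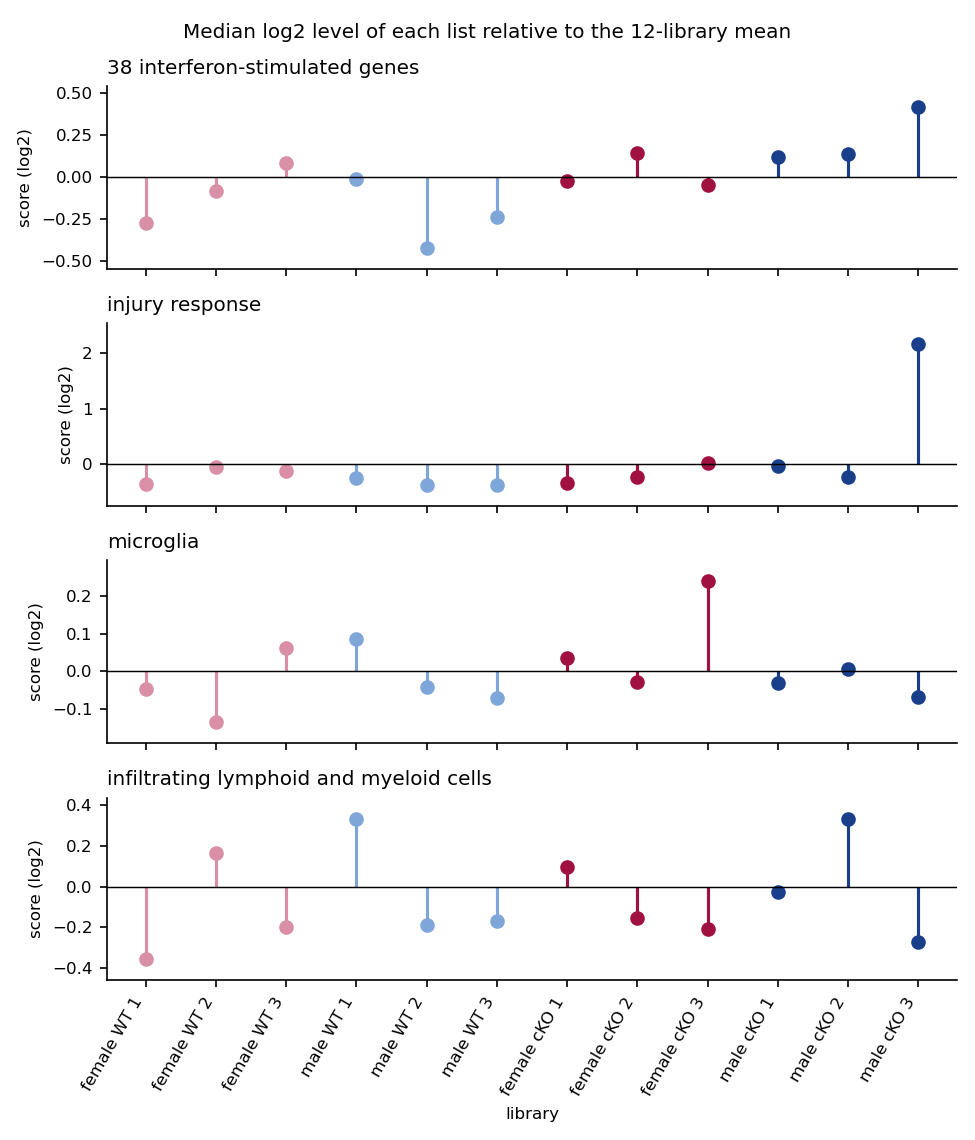
Score of each library (median log2 level of a list relative to the mean of the 12 libraries) for the 38 interferon-stimulated genes and for the marker lists of injury response, microglia and infiltrating lymphoid and myeloid cells. Male cKO replicate 3 has the highest score of the 38 genes (0.42) and of injury response (2.16). By this score, a median in which opposite shifts of single markers do not show, it is not among the highest for microglia (-0.07) or infiltrating cells (-0.27).

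The rest of the interferon pathway was followed with lists of 106 genes, of which 103 were found and 89 passed the filter. None of the 89 was called in both sexes together (0.148% of all genes), and 8 had an unadjusted p under 0.05, all higher in *Dek* cKO mice (4.84% of all genes). Interferon ligands were at the edge of the list: *Ifnb1* was above 0 in 1 library, at 0.272 TPM, and *Ifna4*, *Ifne*, *Ifnl2* and *Ifnl3* were listed at 0 in all 12. Their receptors were well expressed, with 21.04 to 26.9 TPM of *Ifnar1* and 17.4 to 24.8 TPM of *Ifnar2*. In this list, *Il10rb*, which also serves the receptor of interferon lambda, had 9.33 ± 0.781 TPM in WT and 11.5 ± 1.48 TPM in cKO libraries (SD, n = 6 each; log2 fold change 0.29, unadjusted p = 0.00715, adjusted p = 0.486, limma). *Ifnar2* and *Ifngr1* followed, with log2 fold changes of 0.15 and 0.06.

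Of 11 tested genes of JAK-STAT signalling and its inhibitors, 0 had an unadjusted p under 0.05, and the smallest were those of *Stat3*, *Stat5b* and *Ptpn6*, with log2 fold changes of 0.33, 0.14 and 0.31. The value of *Stat3*, a mediator of cytokine signals, was 0.16 without male cKO replicate 3. The 17 sensors, adaptors and kinases upstream of interferon had a median of 0.07, and 0 had an unadjusted p under 0.05. *Irf8*, *Mb21d1* (the DNA sensor cGAS) and *Ticam1* (the adaptor TRIF) had log2 fold changes of 0.26, 0.29 and 0.20. The 9 enzymes that clear or edit nucleic acids had a median of 0.02, with *Rnaseh2a* at -0.13 and *Trex1* at 0.26, and 0 had an unadjusted p under 0.05. Sensing and clearing genes of the pathway thus lay closer to 0 than the 38 genes, a difference that was not tested.

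Other interferon-stimulated genes, outside the 38, had 28 of 34 above 0 (55.8% of all genes) and a median of 0.17. At an unadjusted p under 0.05, 5 of the 34 were higher (4.84% of all genes). *Herc6*, the mouse ligase that attaches ISG15, had 2.48 ± 0.225 TPM in WT and 3.74 ± 1.11 TPM in cKO libraries (SD, n = 6 each; log2 fold change 0.53, unadjusted p = 0.00731, adjusted p = 0.486, limma). *Helz2*, a helicase, and *Sp100*, of nuclear bodies, had log2 fold changes of 0.46 and 0.29. Of the 12 tested GTPases induced mainly by interferon gamma, 12 were above 0 (55.8% of all genes), with a median of 0.49 that was 0.32 without male cKO replicate 3. *Igtp*, which guards against parasites in vacuoles, had 3.06 ± 0.50 TPM in WT and 5.29 ± 2.16 TPM in cKO libraries (SD, n = 6 each; log2 fold change 0.71, unadjusted p = 0.00465, adjusted p = 0.417, limma), and *Ifi47* and *Tgtp2* had log2 fold changes of 0.63 and 0.79.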

How the data were processed

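The deposited table holds 1 value of TPM per gene and library, made by the authors by dividing reads by transcript length and scaling each library to a common total. The labels name kallisto and mm10, the study's methods describe alignment with STAR and quantification with Salmon, and which of them wrote the table is not given in the sources used here. All 12 columns were matched to samples by library name, and 0 further columns of single samples were present. At most 27.7% of values were identical between any pair of libraries. Columns of the authors' own comparisons were not used.

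Ensembl IDs were given symbols from GENCODE M21 (GRCm38), which named 25262 of the 26409 genes. Genes averaging 0.1 TPM or more over the 12 libraries, 18197 in all, were kept and transformed to log2(TPM + 0.1), so fold changes of genes near that level are understated. Tests were those of limma (version 3.58.1 in R 4.3.3, with trended prior variance, moderated and two-sided) with Benjamini-Hochberg adjustment over all genes tested. Pooled sexes were fitted as 6 against 6 libraries, and each sex and the interaction as contrasts of 1 fit of 4 groups of 3. Calls required an adjusted p under 0.05 and a fold change above 1.2. Without counts, the study's count test could not be repeated. P-values measure the spread between libraries, each taken as 1 mouse.

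The 38 members, the pathway lists and the marker lists were chosen with earlier results of these data known. All 38 are named; values in every library and full statistics are given for the 10 with the smallest unadjusted p in both sexes, the 5 with the highest mean TPM, and *Irf7*, *Irf9* and *Stat2*, and of each pathway list the 3 genes with the smallest unadjusted p are named, except that some results are not reported here. Other values, among them those of *Mx2*, *Oas1b*, *Rtp4*, *Ifitm1*, the interferon genes and single markers, were singled out after they were seen. Older names were resolved through RefSeq synonyms. Promoter windows were taken from RefSeq (GRCm38.p6), by symbol.

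Alternatives were 0.5 or 1 TPM added, quantile normalization, median ratio rescaling, a minimum mean of 1 TPM or none, a replicate block, a prior without trend, a term for sex, CMV-named libraries only, a fit on 1 sex alone, both libraries of conflicting sex left out, and each library left out in turn. Labels of equal replicate number did not pair the libraries: the correlation of their deviations lay between -0.0385 and 0.0445. The steps were tested on simulated data. Tables were made with Python 3.11.15, pandas 2.3.3 and numpy 2.4.6.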

Additional observations from a re-analysis of the deposited data

Results flagged for a closer look

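In 8 of 76 sets of 6 libraries (38 genes, WT and cKO apart), 1 library lay far from the other 5 by Dixon's criterion. Chance meets it in about 1 in 20 sets of independent, normally distributed values. TPM were used untransformed and the sets share the same 12 libraries, so 8 of 76 cannot be set against that rate. In WT mice the flagged values were *Zbp1* (0.43 TPM) and *Irf7* (3.27 TPM) in male WT replicate 1, *Oas1b* in female WT replicate 2 (2.02 TPM), *Ifit1* in female WT replicate 3 (2.27 TPM) and *Ifitm1* in female WT replicate 1 (21.9 TPM). In *Dek* cKO mice they were *Ifit3b* (8.03 TPM) and *Mx2* (0.903 TPM) in male cKO replicate 3, the library with the injury response, and *Mx1* in female cKO replicate 3 (1.82 TPM), 1 of the 2 libraries whose Y-linked expression went against their label. For *Mx2* the other cKO libraries were all listed at 0, so any value above 0 would have met the criterion.

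By label, the effect of genotype on *Ifitm1* pointed in opposite directions in the sexes. All 3 female cKO libraries (3.58 to 6.40 TPM) were below all 3 female WT libraries (6.69 to 21.9 TPM), and all 3 male cKO libraries (7.23 to 8.26 TPM) were above all 3 male WT libraries (2.31 to 5.67 TPM). The difference, female effect minus male effect, was -2.27 on the log2 scale (unadjusted p = 0.0026, adjusted p = 0.966, limma), so it did not pass the adjustment over all genes. Both libraries of conflicting sex and female WT replicate 1, the highest of all, enter this difference, and the name prefix cannot be told apart from genotype in females. Exchanged by Y-linked expression, male cKO replicate 1 (8.26 TPM) would lie within the female WT range. Female cKO replicate 3 (3.58 TPM) would lie within the male WT range, so neither sex would show separation.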

How the results depend on the processing

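No member was called in any alternative, in both sexes, within a sex or in the interaction. In both sexes, 10 members were higher at an unadjusted p under 0.05 (880 of all 18197 genes). This count was 6 of the 28 members left with a mean of at least 1 TPM, where fewer genes were tested (617 of 14160). It was 8 to 14 when each library was left out in turn. It was 8 without male cKO replicate 3 (915 of 18165 genes) and 14 without female cKO replicate 3 (914 of 18208 genes). It was 5 with quantile normalization without male cKO replicate 3 (714 of 18165 genes). It was also 5 without female WT replicate 1 and male cKO replicate 3 (756 of 18028 genes). These combined settings, with those of CMV-named libraries or 1 TPM added without male cKO replicate 3, were chosen after seeing the data, and the cause of these shifts was not tested. Members with all cKO above all WT libraries numbered 1 (104 of 18197 genes). They numbered 1 to 4 when each library was left out, where fewer libraries have to be separated. There were 3 without female cKO replicate 3 (152 of 18208 genes) and 4 when female WT replicate 3 was dropped (152 of 18224 genes). The count of such members was 7 in CMV-named libraries only (349 of 18097 genes). It was also 7 in these without male cKO replicate 3 (510 of 18039 genes). With a replicate block the members called were 0, and genes called among all tested were 3 in place of 27. Members higher at an unadjusted p under 0.05 were then 11 (846 of 18197 genes). The labels' numbers did not pair the libraries. At an unadjusted p under 0.05, the 13 members higher in males were 8 to 21 when each library was left out. They were 21 without male WT replicate 1 (551 of 18216 genes) and 8 without male WT replicate 3 (477 of 18209 genes). Without male cKO replicate 2 they were 12, beside the most genes (1207 of 18192). The 2 higher in females were 1 to 3. They were 3 without male WT replicate 1 (660 of 18216 genes) or male WT replicate 2 (684 of 18220 genes). They were 1 without female WT replicate 1 (483 of 18079 genes) and 2 without female cKO replicate 3 (1064 of 18208 genes). In the interaction, the 5 members with a more positive effect in males were 3 to 8 when each library was left out. They were 8 without male WT replicate 1 (757 of 18216 genes in either direction) or male cKO replicate 1 (1044 of 18195 genes). They were 3 without female WT replicate 3 (690 of 18224 genes) or male WT replicate 2 (700 of 18220 genes). The count was also 3 without female cKO replicate 3 (1272 of 18208 genes) or male cKO replicate 3 (777 of 18165 genes). Over all fits with 1 library left out, 580 to 1272 of all genes had an unadjusted p under 0.05 in either direction. Without male cKO replicate 3, 1 member went the other way. The log2 fold change in both sexes kept its sign in each alternative that gave it a value (24 to 26 a member) for 32 members and changed it in at least 1 for 6. *Ifih1*, at 0.08, was -0.00447 without female cKO replicate 2, and -0.00447 to 0.167 when each library was left out. *Oas1b*, listed at 0 in 7 libraries, was -0.347 to 0.934 when each library was left out, with -0.253 without female cKO replicate 2 and -0.347 without male cKO replicate 1. *Ifit2*, at 0.00, was -0.0129 with median ratio rescaling, -0.0409 with quantile normalization and -0.0616 to 0.152 with 1 library left out or with both female WT replicate 1 and male cKO replicate 3 left out. *Ifitm1* was 0.706 in CMV-named libraries, 0.654 in these without male cKO replicate 3, 0.258 without female WT replicate 1 and male cKO replicate 3, and -0.328 to 0.310 when each library was left out. *Parp9* was -0.0456 in CMV-named libraries, -0.113 in these without male cKO replicate 3, -0.0314 with quantile normalization without that library, and -0.00679 to 0.142 when each library was left out. *Xaf1* was -0.0219 without male WT replicate 2, and -0.0219 to 0.21 when each library was left out. TPM keeps no read counts, so counting error at low levels (*Oas3*, *Mx2*, *Rtp4*, *Zbp1*) is unknown.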
